A study of Homo sapiens with 8 samples.

Results

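The 34 genes described here serve glycolysis and the response to low oxygen: the subunits of the hypoxia-inducible factors (HIF), the proteins that break those factors down when oxygen is present, glucose and lactate transporters, glycolytic enzymes, and other genes that low oxygen is known to induce. They were chosen by gene symbol. The array holds 55 probes for them among its 47322 probes, and each gene was read on its probe with the highest mean signal over 8 arrays, which makes 34 of the 31426 gene symbols on the array.

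Glycolysis splits glucose into pyruvate in the cytosol, and tumor cells often run it at a high rate and release the product as lactate. While oxygen is present, prolyl hydroxylases mark the HIF alpha subunits and the VHL protein has them destroyed. In low oxygen the alpha subunits HIF1A and EPAS1 (also called HIF2A) escape this, pair with ARNT, and raise transcription from DNA elements with an ACGTG or GCGTG core next to many genes of glucose uptake, glycolysis, pH control and mitophagy. Because this control acts mainly on the stability of the alpha proteins, the mRNA signals on an array do not show how active the factors were.

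The study asked how TRPM7, a cation channel with a kinase domain, shapes gene expression in human neuroblastoma, a tumor of the neural crest. Its RNA profiles come from Illumina HumanHT-12 v4 bead arrays of 2 cell lines, the epithelial-like line SH-EP2 and the neuroblastic line SH-SY5Y. Each line had been transduced by lentivirus with a TRPM7 shRNA or, as control, with a scrambled shRNA, and each of the 4 groups has 2 arrays. All groups therefore carry a lentiviral shRNA. The arrays hold a single TRPM7 shRNA. The study used an independent TRPM7 shRNA in SH-EP2 cells against off-target effects in other assays, and no array of it was analysed here. Neither the labels nor the methods say whether the duplicates are separate cultures, so the p-values measure only the spread between these samples, which may be technical. No group was grown in low oxygen as far as the labels and methods say.

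Between 40.8% and 44.2% of the probes were detected per array, at a detection p under 0.05, and 31 or 32 of the 34 genes were among them on each array. The TRPM7 probe stayed below the detection limit on all 8 arrays (detection p from 0.0753 to 0.201), so these signals do not show how far TRPM7 was knocked down. The study made stable TRPM7 knockdown cells of both lines and measured TRPM7 mRNA in these lines by quantitative RT-PCR. The labelled cell types were checked on marker lists. Of 14 noradrenergic markers, 12 were detected on each SH-SY5Y array and 3 or 4 on each SH-EP2 array, although TH and SLC18A2, which define catecholamine cells, were not detected in either line. All 14 mesenchymal markers were detected on each SH-EP2 array, and 10 or 11 on each SH-SY5Y array. Values below are log2 normalized signals, changes are log2 fold changes with their standard error, and a gene was called changed at a limma adjusted p under 0.05 over all probes. Arrays average over all cells of a culture, so fewer cells that express a gene and less RNA per cell cannot be told apart.

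In SH-EP2 cells, TRPM7 shRNA went with lower signals of both HIF alpha subunits, of ALDOC, BNIP3L and ANKRD37, and with higher signals of PFKFB3 and ADM. Thus 7 of the 34 genes were called, 2 higher and 5 lower. Of all genes with a detected probe, 3.30% were called higher and 3.36% lower. In SH-SY5Y cells 4 genes were called: EPAS1 was higher, and PFKP, ALDOC and ANKRD37 were lower. The background there was 1.73% higher and 2.76% lower. The test of the difference between the lines called EPAS1 and ANKRD37, beside 2.79% of all genes with a detected probe. Together 8 genes were called in at least 1 line, and ALDOC, ANKRD37 and EPAS1 in both, EPAS1 in opposite directions.

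**Figure D1:**
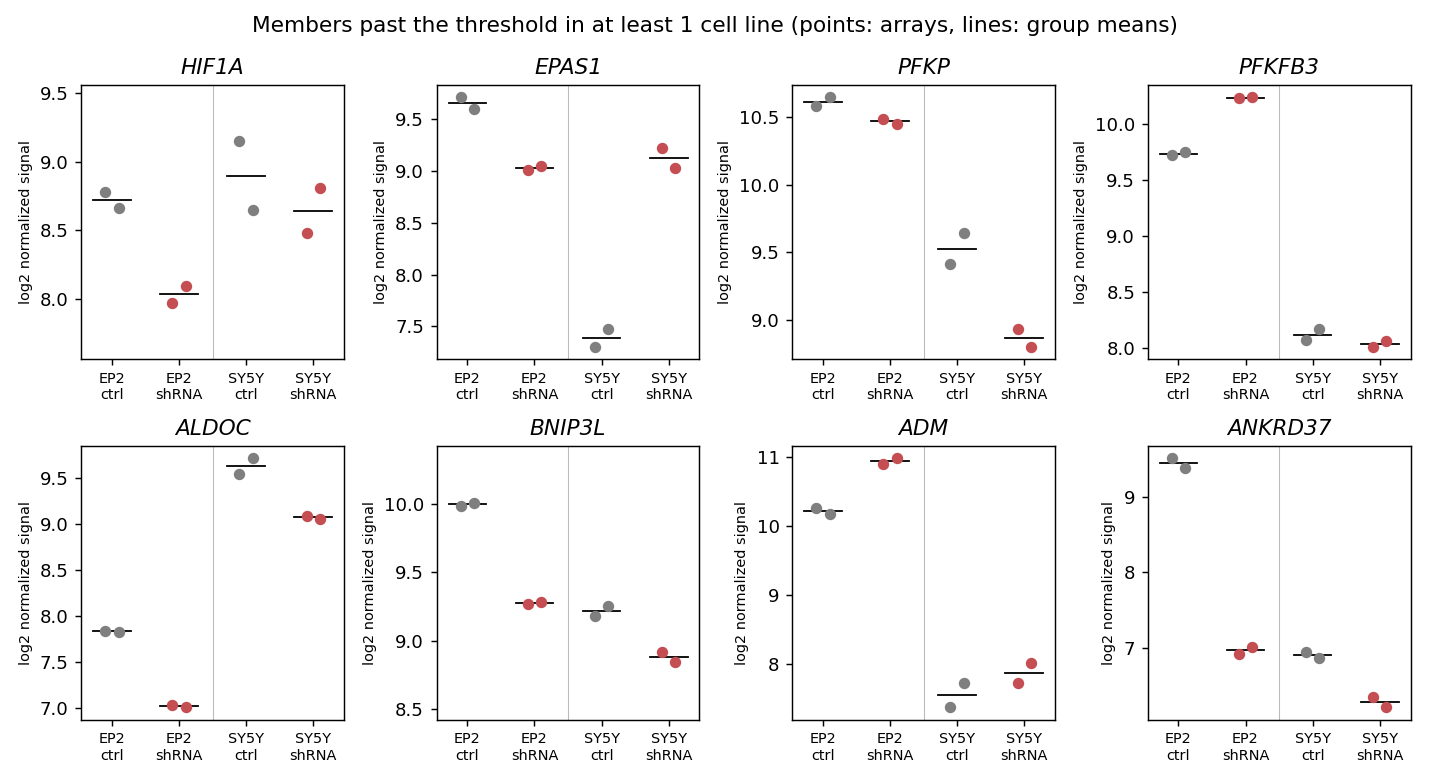
Log2 normalized signal (vertical axes, which differ in range) of the 8 genes called in at least 1 cell line. Points are single arrays of SH-EP2 (EP2) and SH-SY5Y (SY5Y) cells with control (gray) or TRPM7 shRNA (red), and lines are group means; EPAS1 falls from a mean of 9.66 to 9.03 in SH-EP2 and rises from 7.39 to 9.13 in SH-SY5Y, and ANKRD37 falls from 9.45 to 6.96 in SH-EP2.

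The 3 genes called in both lines each have a single promoter in the RefSeq annotation of GRCh38.p14, and these are printed here because the question at hand concerns genes with a HIF core element. Each window runs from 250 bases before the annotated start to 50 bases after it, on the strand of the gene. Capitals mark ACGTG and GCGTG on either strand, the latter reading CACGT and CACGC, and CACGTG holds ACGTG on both strands and is also the E-box that other factors bind.
ANKRD37 (chr4:185396591-185396890, plus strand): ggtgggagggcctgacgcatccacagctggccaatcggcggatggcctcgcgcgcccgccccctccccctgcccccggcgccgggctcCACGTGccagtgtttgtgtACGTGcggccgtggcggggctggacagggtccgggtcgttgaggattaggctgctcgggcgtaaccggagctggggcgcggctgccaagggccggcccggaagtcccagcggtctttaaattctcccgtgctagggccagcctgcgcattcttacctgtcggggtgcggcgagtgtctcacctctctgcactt
ALDOC (chr17:28576846-28577145, minus strand): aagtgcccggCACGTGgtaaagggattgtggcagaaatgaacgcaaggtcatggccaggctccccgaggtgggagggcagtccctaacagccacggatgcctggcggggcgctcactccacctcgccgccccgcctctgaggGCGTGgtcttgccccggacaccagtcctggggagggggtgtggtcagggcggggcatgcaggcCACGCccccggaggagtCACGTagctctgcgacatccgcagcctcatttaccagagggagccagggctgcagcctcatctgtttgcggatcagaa
EPAS1 (chr2:46297157-46297456, plus strand): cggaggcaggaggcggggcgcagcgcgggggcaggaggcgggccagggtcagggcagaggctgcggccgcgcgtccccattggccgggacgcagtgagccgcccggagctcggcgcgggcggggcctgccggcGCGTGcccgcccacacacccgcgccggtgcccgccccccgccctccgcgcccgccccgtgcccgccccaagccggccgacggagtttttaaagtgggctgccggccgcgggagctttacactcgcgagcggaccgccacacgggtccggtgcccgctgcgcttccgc
The ANKRD37 window holds CACGTG and a further ACGTG, the ALDOC window holds CACGTG, a further ACGTG on the other strand and 2 GCGTG, and the EPAS1 window holds 1 GCGTG. Promoters were matched for 30 of the 34 genes, and BNIP3L, NDRG1, VHL and SLC2A3 have no entry in the table. At least 1 of the cores stood in a promoter of 27 of these 30 genes (90%), against 52.4% of all 27305 genes with a promoter and 67.4% of the 10022 detected on at least 1 array. ACGTG alone was found for 60% of the 30 genes, 24.9% of all genes and 31.4% of the detected genes. Genes with many annotated starts have more windows to match. Per window the share with either core was 64.9% of the 57 windows of the 30 genes and 48.4% of all 35116. With a core in so many of them, its presence could not have told called from uncalled genes (7 of 7 with an entry, and 20 of 23). A match describes these letters only and is no measured binding site.

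Both HIF alpha subunits fell in SH-EP2, and EPAS1 rose in SH-SY5Y. HIF1A, the widely expressed alpha subunit, read 8.78 and 8.66 in SH-EP2 control cells and 7.97 and 8.10 in SH-EP2 TRPM7 shRNA cells. Both knockdown arrays lay below both control arrays, and the fall of 0.69 ± 0.15 (SE), or 1.61-fold, passed the test (limma adjusted p = 0.0112). The other HIF1A probes gave the same direction in SH-EP2, with changes of -0.73 (adjusted p = 0.00174) and -0.71 (adjusted p = 0.0187). In SH-SY5Y cells HIF1A read 9.15 and 8.65 in control and 8.48 and 8.81 in TRPM7 shRNA cells, and the groups overlapped. Its change of -0.26 ± 0.15 did not pass (adjusted p = 0.571). On the other probes the groups did not overlap in SH-SY5Y, with changes of -0.44 (adjusted p = 0.0973) and -0.32 (adjusted p = 0.488) that did not pass either, so every HIF1A probe was fitted lower in both lines. The difference between the lines was not called on the main probe (-0.43, 95% interval -0.87 to 0.01, adjusted p = 0.498), so a fall particular to SH-EP2 was not shown. The call of the main HIF1A probe in SH-EP2 was lost when any of the 4 SH-EP2 arrays was left out. The adjusted p was then 0.132 without control replicate 1, 0.0661 without control replicate 2, 0.130 without TRPM7 shRNA replicate 1 and 0.0501 without TRPM7 shRNA replicate 2.

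EPAS1, the alpha subunit known from endothelium and the sympathetic lineage, showed the largest rise of the 34 genes. It read 7.30 and 7.48 in SH-SY5Y control cells and 9.22 and 9.03 in SH-SY5Y TRPM7 shRNA cells, a change of 1.74 ± 0.11 or 3.34-fold (limma adjusted p = 1.52e-08). In SH-EP2 cells it read 9.71 and 9.60 in control and 9.01 and 9.05 in TRPM7 shRNA cells. That is a fall of 0.63 ± 0.11 or 1.55-fold (adjusted p = 0.00234), which lost its call without SH-EP2 control replicate 1 (-0.58, adjusted p = 0.0601). Neither line had overlapping groups. The difference between the lines, SH-EP2 minus SH-SY5Y, was -2.37 ± 0.16 (limma adjusted p = 5.16e-08). EPAS1 thus differed 4.82-fold between the control cells of the lines, while the arrays of the TRPM7 shRNA groups of both lines lay together between 9.01 and 9.22. EPAS1 has a single probe on the array, so no other probe bears on this.

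ARNT, the partner of both alpha subunits, read between 6.02 and 6.24 in SH-EP2 and between 5.15 and 5.82 in SH-SY5Y, and its changes of -0.15 and -0.34 did not pass (adjusted p = 0.878 and 0.642). A dimmer ARNT probe went the other way in SH-EP2 (0.87, adjusted p = 0.544). None of the 3 genes that control HIF breakdown was called in either line, which for 3 genes is near the shares of all genes given above. At an unadjusted p under 0.05 limma gave 1 of them, EGLN3 in SH-SY5Y. EGLN1, the main prolyl hydroxylase, changed by -0.35 ± 0.17 in SH-EP2 and -0.02 ± 0.17 in SH-SY5Y. VHL, which recognizes the hydroxylated alpha subunits, changed by 0.21 ± 0.10 and 0.11 ± 0.10. EGLN3, a prolyl hydroxylase that is itself hypoxia-inducible, was not detected on any SH-EP2 array. In SH-SY5Y it read 5.26 and 5.50 in control and 3.74 and 4.84 in TRPM7 shRNA cells, without overlap, but the change of -1.09 ± 0.47 did not pass (limma adjusted p = 0.363).

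**Figure D2:**
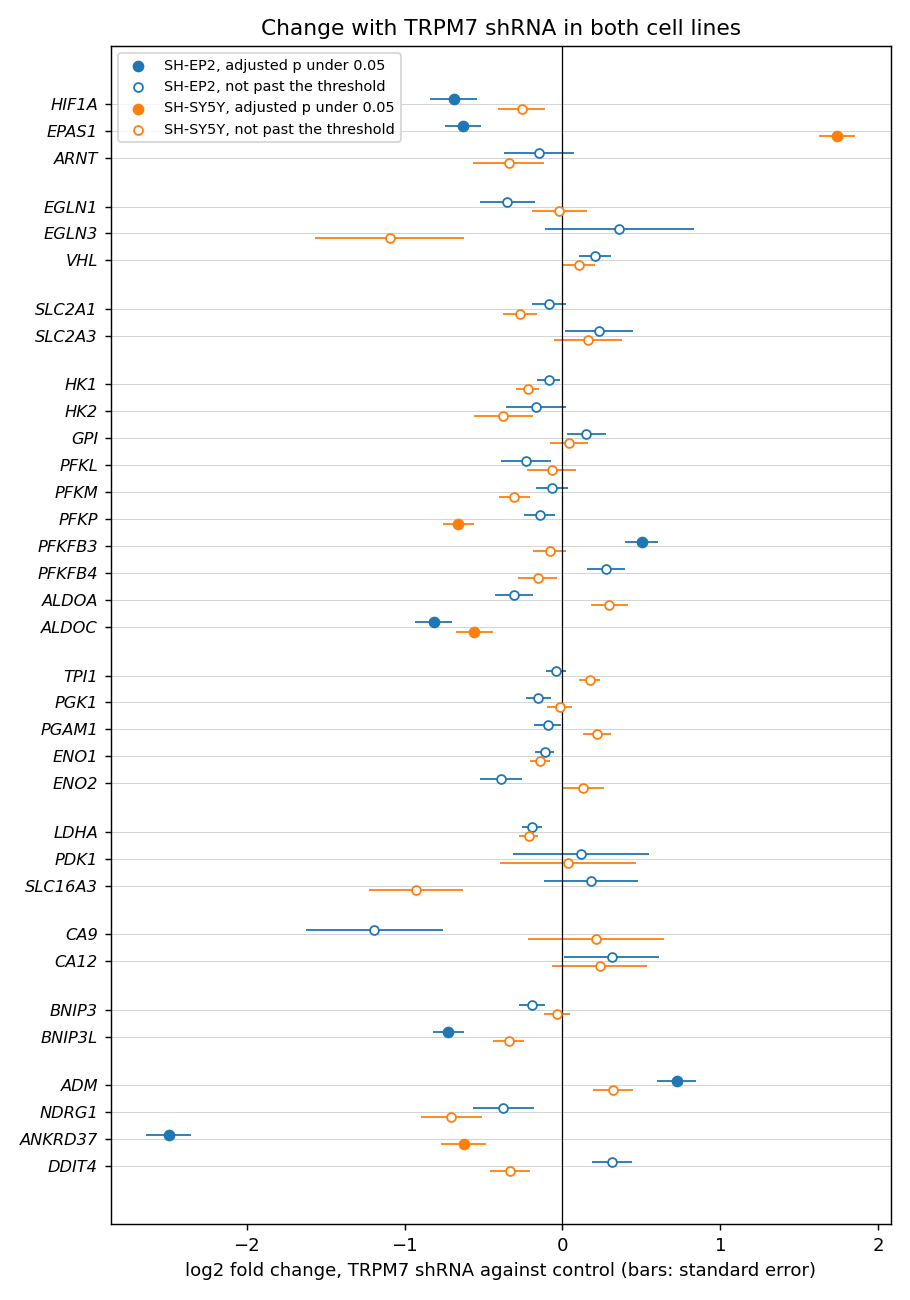
Log2 fold change with TRPM7 shRNA against control (horizontal axis) of the 34 genes in order of role, with the standard error as bars; filled points passed an adjusted p of 0.05. Most points lie within 0.5 of 0 in both lines, and EPAS1 is filled on opposite sides of 0, at -0.63 in SH-EP2 and 1.74 in SH-SY5Y.

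The remaining 28 genes are the transporters, the enzymes and the other response genes, and most of them moved little. In SH-EP2 cells 2 of them were called higher and 3 lower, beside 3.30% and 3.36% of all genes with a detected probe, 22 had a fitted change within 0.5 of 0, and the median was -0.10. In SH-SY5Y cells none was called higher and 3 were called lower, beside 1.73% and 2.76%, 23 lay within 0.5 of 0, and the median was -0.11. At a background of 1.73%, none called higher of 28 is near the share of all genes. At an unadjusted p under 0.05 limma gave ALDOA, TPI1, PGAM1 and ADM as higher in SH-SY5Y, but a second TPI1 probe was fitted lower there (-0.11).

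Over all 34 genes, 23 were fitted below 0 in SH-EP2 (median -0.13, against 0.02 over all genes with a detected probe) and 22 in SH-SY5Y (median -0.11, against 0.02), but with median scaling in place of quantile normalization the SH-SY5Y balance turned to 16 below and 18 above 0, with a median of 0.04. Median scaling moved all detected genes in SH-SY5Y upward as well, to a median of 0.14. Relative to it the 34 genes stood at -0.10, compared with -0.13 with quantile normalization. Over all probes the split of calls in SH-SY5Y was 382 higher and 617 lower with quantile normalization and 553 higher and 284 lower with median scaling. No test was made over the list.

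**Figure D3:**
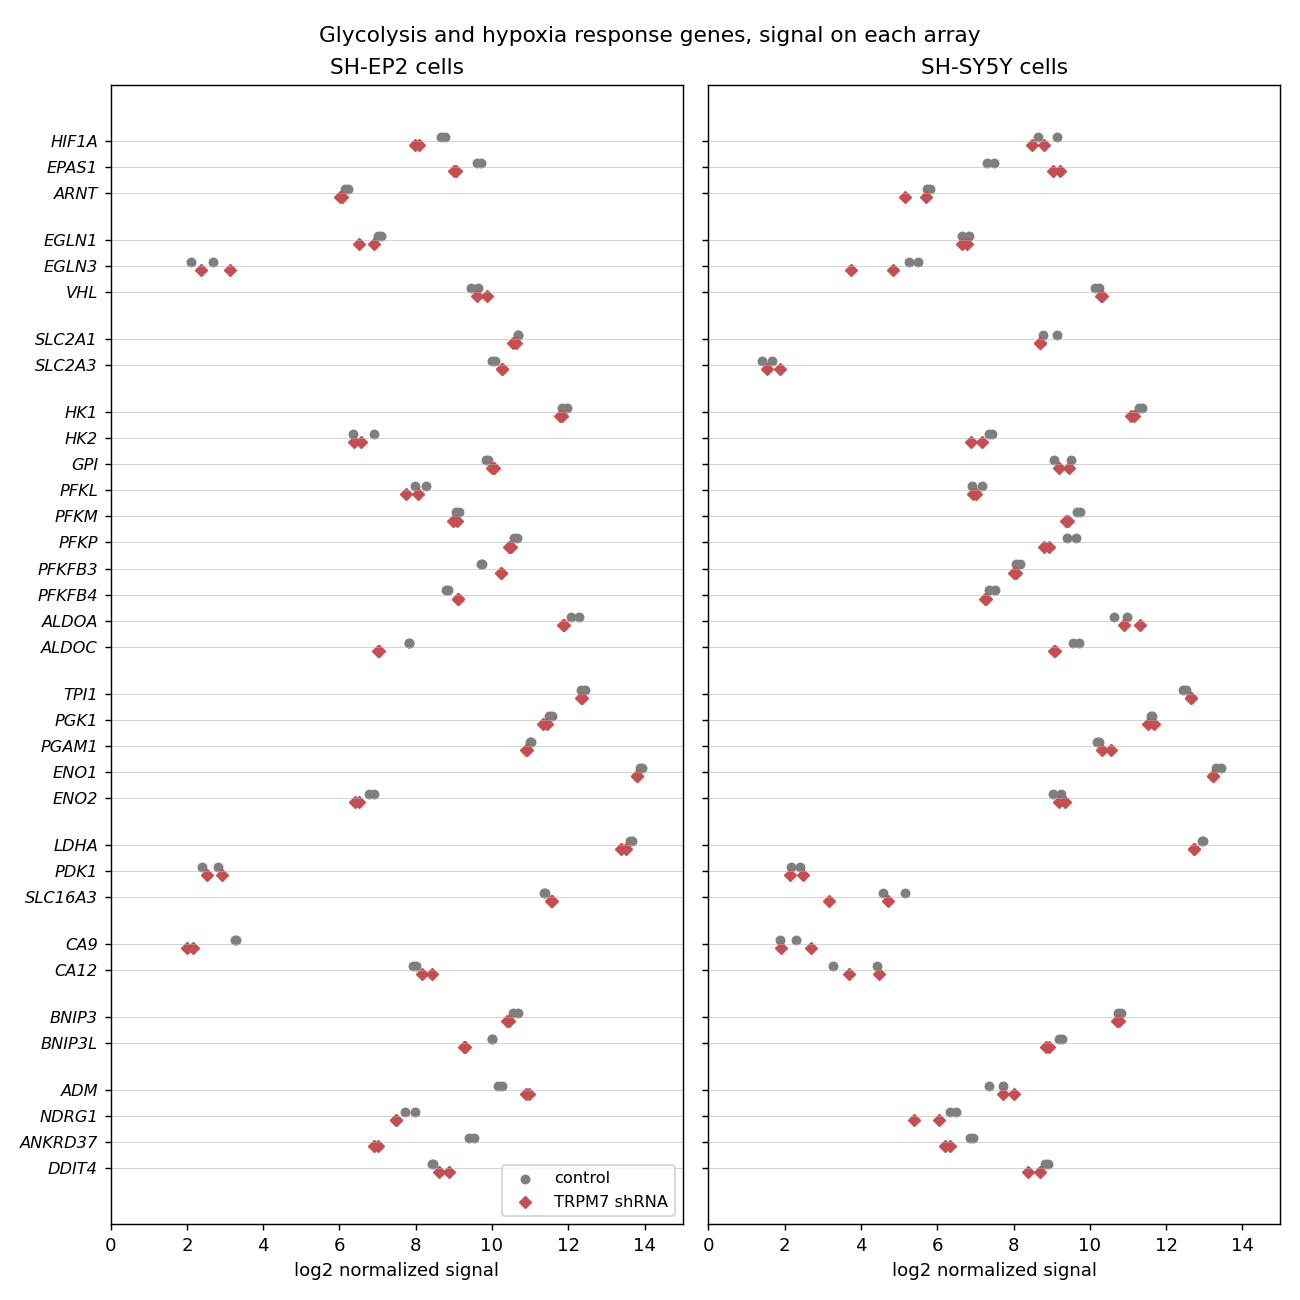
Log2 normalized signal (horizontal axis) of each gene on each array, ordered by role, in SH-EP2 (left) and SH-SY5Y cells (right), with control in gray circles and TRPM7 shRNA in red diamonds. Signals of different genes come from different probes and are not comparable in level; SLC2A3 and SLC16A3 stand far apart between the panels, and PDK1 was not detected on any array.

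Glucose enters through SLC2A1 (GLUT1) and SLC2A3 (GLUT3), and neither changed beyond the threshold with TRPM7 shRNA. SLC2A1 read 10.67 and 10.67 in SH-EP2 control and 10.54 and 10.64 in TRPM7 shRNA cells, a change of -0.09 ± 0.11. In SH-SY5Y it read 9.14 and 8.78 in control and 8.68 and 8.70 in TRPM7 shRNA cells, a change of -0.27 ± 0.11 (limma adjusted p = 0.315). Without SH-SY5Y control replicate 2 the SLC2A1 change was -0.45 and passed (adjusted p = 0.0363). SLC2A3 was at 10.08 and 10.01 in SH-EP2 control and 10.27 and 10.27 in TRPM7 shRNA cells (change 0.23 ± 0.21, adjusted p = 0.759), and stayed undetected in SH-SY5Y.

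In the upper part of glycolysis, from the trapping of glucose to the splitting of fructose bisphosphate, 10 genes were read. In SH-EP2 1 was called higher and 1 lower, beside 3.30% and 3.36% of all genes with a detected probe. In SH-SY5Y none was called higher and 2 were called lower, beside 1.73% and 2.76%. ALDOC, the brain-type aldolase, fell in both lines. It read 7.84 and 7.83 in SH-EP2 control and 7.03 and 7.01 in SH-EP2 TRPM7 shRNA cells, and 9.55 and 9.72 in SH-SY5Y control and 9.09 and 9.05 in SH-SY5Y TRPM7 shRNA cells. The groups did not overlap in either line. The falls were 0.82 ± 0.12 or 1.76-fold in SH-EP2 (limma adjusted p = 0.000234) and 0.56 ± 0.12 or 1.47-fold in SH-SY5Y (adjusted p = 0.0108), and the difference between them was -0.26 (95% interval -0.60 to 0.09). In SH-SY5Y the ALDOC call was lost without control replicate 2 (adjusted p = 0.129), without TRPM7 shRNA replicate 1 (0.0600) or replicate 2 (0.0796), and with median scaling (0.127). ALDOA, the aldolase of most tissues, read 12.08 and 12.29 in SH-EP2 control against 11.88 and 11.87, and 10.62 and 10.99 in SH-SY5Y control against 11.31 and 10.89. Its changes of -0.31 ± 0.12 and 0.30 ± 0.12 did not pass, nor did their difference of -0.61 (adjusted p = 0.0970), though that difference passed without SH-SY5Y control replicate 2 (-0.79, adjusted p = 0.0225) and without SH-SY5Y TRPM7 shRNA replicate 2 (-0.82, adjusted p = 0.00867).

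Phosphofructokinase commits the sugar to glycolysis, and its 3 isoenzymes did not move alike. PFKP, the platelet type, read 9.41 and 9.64 in SH-SY5Y control and 8.93 and 8.80 in TRPM7 shRNA cells, a fall of 0.66 ± 0.10 or 1.58-fold (limma adjusted p = 0.000426). Its groups did not overlap, and the call held without each array. In SH-EP2 PFKP read 10.58 and 10.64 against 10.49 and 10.45, a change of -0.14 ± 0.10 (adjusted p = 0.627). The difference between the lines of 0.52 ± 0.14 did not pass (adjusted p = 0.0812), but did without SH-SY5Y control replicate 1 (0.63, adjusted p = 0.0243). The muscle type PFKM changed by -0.07 and -0.30 in SH-EP2 and SH-SY5Y, and the liver type PFKL by -0.23 and -0.07, with no call.

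PFKFB3 makes fructose 2,6-bisphosphate, an activator of phosphofructokinase. It read 9.72 and 9.75 in SH-EP2 control and 10.23 and 10.24 in SH-EP2 TRPM7 shRNA cells, a rise of 0.50 ± 0.10 or 1.42-fold (limma adjusted p = 0.00682). In SH-SY5Y it read 8.07 and 8.17 against 8.01 and 8.06, a change of -0.08 ± 0.10. The difference between the lines of 0.58 stood at the threshold (adjusted p = 0.0502; 0.0418 without SH-SY5Y control replicate 1). The PFKFB3 rise in SH-EP2 lost its call when any SH-EP2 array was left out, with adjusted p values of 0.0866 and 0.0673 without control replicates 1 and 2 and 0.0902 and 0.0949 without TRPM7 shRNA replicates 1 and 2. Its dimmer second probe changed by 0.27 (adjusted p = 0.735). The related PFKFB4 read 8.80 and 8.85 against 9.10 and 9.10 in SH-EP2, a change of 0.28 ± 0.12 that did not pass (adjusted p = 0.332).

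Hexokinases phosphorylate glucose. HK1 changed by -0.09 ± 0.08 in SH-EP2 and -0.22 ± 0.08 in SH-SY5Y, without a call. The inducible HK2 read 6.36 and 6.91 in SH-EP2 control against 6.37 and 6.57, with overlap and a change of -0.17 ± 0.19, but its other probe fell by 0.90 in SH-EP2 and was called (limma adjusted p = 0.0458), so the HK2 probes were called differently. The glucose phosphate isomerase gene GPI changed by 0.15 and 0.04.

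The lower part of glycolysis, where ATP is gained, held no called gene in either line. For 5 genes this is near the shares of all genes with a detected probe. Those were 3.30% higher and 3.36% lower in SH-EP2, and 1.73% and 2.76% in SH-SY5Y. By limma at an unadjusted p under 0.05, 1 of the 5 genes passed in SH-EP2 and 3 passed in SH-SY5Y. Of all 31426 genes, 4393 and 3978 did. TPI1, PGK1, PGAM1 and ENO1, the isomerase, kinase, mutase and common enolase of this segment, changed by between -0.15 and -0.04 in SH-EP2. In SH-SY5Y their changes ran from -0.14 for ENO1 to 0.22 for PGAM1. Second probes went the other way for PGK1 in SH-EP2 (0.12, limma adjusted p = 0.710) and for TPI1 in SH-SY5Y (-0.11, adjusted p = 0.679). ENO2, the neuronal enolase, read 6.91 and 6.78 in SH-EP2 control and 6.41 and 6.50 in TRPM7 shRNA cells, without overlap, but its change of -0.39 ± 0.13 did not pass (adjusted p = 0.157).

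Pyruvate becomes lactate through LDHA and leaves the cell through SLC16A3 (MCT4), while PDK1 holds pyruvate back from the mitochondria. LDHA read 13.63 and 13.66 in SH-EP2 control against 13.38 and 13.52, and 12.93 and 12.96 in SH-SY5Y control against 12.72 and 12.74. Both lines had lower signals on both knockdown arrays, but the changes of -0.19 ± 0.06 (limma adjusted p = 0.122) and -0.21 ± 0.06 (adjusted p = 0.0917) did not pass. A second LDHA probe was called lower in SH-SY5Y (-0.30, adjusted p = 0.0215). SLC16A3 was at 11.36 and 11.39 in SH-EP2 control and at 11.57 and 11.55 in TRPM7 shRNA cells. In SH-SY5Y it read 5.15 and 4.58 in control and 3.16 and 4.71 in TRPM7 shRNA cells, and the groups overlapped. Its change there, -0.93 ± 0.30 (limma adjusted p = 0.148), rests on how far 1 array lay from the other. Without TRPM7 shRNA replicate 2 the change was -1.67 and the difference between the lines 1.85. Both then passed, but the group was left with 1 array at 3.16, a signal close to background. PDK1 was not detected on any array.

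The carbonic anhydrases CA9 and CA12 regulate pH at the cell surface. CA9, a classical HIF target, was detected only on the SH-EP2 control arrays, at 3.28 and 3.27, and read 2.01 and 2.16 in SH-EP2 TRPM7 shRNA cells. These signals are close to background, CA9 was at least 1.07-fold higher in control, and its fitted change of -1.19 did not pass (limma adjusted p = 0.194). CA12 changed by 0.31 ± 0.30 in SH-EP2 and 0.24 ± 0.30 in SH-SY5Y.

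Of the mitophagy receptors, BNIP3L fell in SH-EP2 and BNIP3 was not called. BNIP3L read 9.99 and 10.01 in SH-EP2 control and 9.27 and 9.28 in TRPM7 shRNA cells, a fall of 0.72 ± 0.10 or 1.65-fold (limma adjusted p = 0.000119). In SH-SY5Y it read 9.18 and 9.26 against 8.92 and 8.84, a change of -0.34 ± 0.10 that did not pass (adjusted p = 0.0843). The groups were apart in both lines, and the difference between the lines was not called (-0.38, adjusted p = 0.267). A dimmer BNIP3L probe changed by -0.21 in SH-EP2 and was not called (adjusted p = 0.727). BNIP3 changed by -0.19 ± 0.08 in SH-EP2 and -0.03 ± 0.08 in SH-SY5Y.

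ANKRD37, an ankyrin repeat gene known as a HIF1 target, had the largest fall of the 34 genes. It read 9.52 and 9.38 in SH-EP2 control cells and 6.91 and 7.01 in SH-EP2 TRPM7 shRNA cells, a fall of 2.49 ± 0.14 or 5.63-fold (limma adjusted p = 1.93e-09). In SH-SY5Y it read 6.94 and 6.85 in control and 6.34 and 6.20 in TRPM7 shRNA cells, a fall of 0.63 ± 0.14 or 1.54-fold (adjusted p = 0.0223). The groups did not overlap in either line. The fall was larger in SH-EP2: the difference of the changes, SH-EP2 minus SH-SY5Y, was -1.87 ± 0.20 (limma adjusted p = 1.88e-05). SH-EP2 TRPM7 shRNA cells and SH-SY5Y control cells overlapped in ANKRD37 signal. The SH-SY5Y call was lost when any SH-SY5Y array was left out (adjusted p = 0.0950 and 0.0623 without control replicates 1 and 2, and 0.0513 and 0.140 without TRPM7 shRNA replicates 1 and 2), with median scaling (0.241), with SH-SY5Y arrays alone (0.141) and with a replicate block (0.0504).

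ADM, the vasodilator peptide adrenomedullin, moved against ANKRD37. It read 10.25 and 10.17 in SH-EP2 control and 10.89 and 10.98 in TRPM7 shRNA cells, a rise of 0.72 ± 0.13 or 1.65-fold (limma adjusted p = 0.00163). In SH-SY5Y its groups overlapped, at 7.37 and 7.72 against 7.71 and 8.01, and the change of 0.32 ± 0.13 did not pass. NDRG1, a stress-responsive gene, read 6.50 and 6.34 in SH-SY5Y control against 6.04 and 5.40. Its change of -0.70 ± 0.19 missed the threshold (adjusted p = 0.0712) and passed without TRPM7 shRNA replicate 1 (-1.02, adjusted p = 0.00994). DDIT4, an inhibitor of mTORC1 signaling, changed by 0.32 ± 0.13 in SH-EP2 and -0.33 ± 0.13 in SH-SY5Y. The difference of 0.65 did not pass (adjusted p = 0.0956), but did without SH-SY5Y TRPM7 shRNA replicate 1 (0.80, adjusted p = 0.0387).

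Other genes of these pathways were taken from further lists. Of 42 other HIF targets, 3 were called higher and 5 lower in SH-EP2, beside 3.30% and 3.36% of all genes with a detected probe. In SH-SY5Y 4 were called higher and 3 lower, beside 1.73% and 2.76%. No test was made over this list. The largest changes among its called genes in SH-EP2 were those of VLDLR, a lipoprotein receptor (-2.42 ± 0.34), ANGPTL4, an inhibitor of lipoprotein lipase (1.51 ± 0.28), and LOX, which crosslinks collagen (-1.15 ± 0.22). In SH-SY5Y they were LOX, at least 3.30-fold higher because the control arrays did not detect it, ANGPTL4 (1.27 ± 0.28) and VEGFA, the angiogenic growth factor (-1.16 ± 0.28). LOX was called lower in SH-EP2 and higher in SH-SY5Y, reading 9.76 and 9.90 against 8.73 and 8.62 in SH-EP2, and 3.07 and 3.20 against 4.43 and 5.34 in SH-SY5Y. For the receptor EGFR, detected on all arrays, the difference of the changes was called (1.43, limma adjusted p = 0.0301).

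Of 29 other genes of glycolysis and lactate handling, 18 were detected in SH-EP2 and 22 in SH-SY5Y. In SH-EP2 1 was called higher and 3 lower, beside 3.30% and 3.36% of all genes with a detected probe. In SH-SY5Y 1 was called higher and 1 lower, beside 1.73% and 2.76%. PCK2, the mitochondrial carboxykinase of gluconeogenesis, fell by 1.20 ± 0.12 in SH-EP2, and its change in SH-SY5Y was -0.10, a difference that was called (-1.10, limma adjusted p = 0.000816). The glucose transporter SLC2A10 changed by -0.57 in SH-EP2 and 0.58 in SH-SY5Y, and that difference was called as well (-1.15, adjusted p = 0.00167). PGM2, which feeds sugar phosphates into glycolysis, fell by 0.55 in SH-EP2, and the muscle enolase ENO3 fell by 0.60 in SH-SY5Y. Of 14 other regulators of HIF, SIAH2, a ubiquitin ligase for prolyl hydroxylases (-1.15 ± 0.23), and ARNT2, a paralog of ARNT (-0.92 ± 0.16), fell in SH-EP2, and limma called none in SH-SY5Y, where 3 had an unadjusted p under 0.05. None of 13 genes of pyruvate entry into mitochondria was called in either line, with 3 at an unadjusted p under 0.05 in each. For both lists the shares of all genes with a detected probe are those given above. Of all 31426 genes, limma gave 4393 in SH-EP2 and 3978 in SH-SY5Y at an unadjusted p under 0.05.

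Markers of cell type moved in the same comparisons. In SH-EP2, 1 of 14 mesenchymal markers was called higher and 5 lower, and 2 of 14 noradrenergic markers lower. The shares of all genes with a detected probe were 3.30% higher and 3.36% lower. Only 4 noradrenergic markers were detected on an SH-EP2 array, and 1 of these was called lower. The other call rests on a probe that no SH-EP2 array detected. Among the mesenchymal markers 8 were fitted below 0 (median change -0.11). Their median signal was 11.60 and 11.63 in control and 11.70 and 11.76 in TRPM7 shRNA cells. In SH-SY5Y, 4 noradrenergic and 3 mesenchymal markers were called lower, beside 2.76% of all genes with a detected probe. Of the noradrenergic markers 13 of 14 were fitted below 0 there (median change -0.26), and of the mesenchymal ones 7 of 14 (median 0.07). Over all 31426 genes, 15593 were fitted below 0. No SH-SY5Y array detected 2 of the noradrenergic and 3 of the mesenchymal markers. Over the detected ones the median changes were -0.36 and -0.08. The median noradrenergic signal there was 10.00 and 10.01 in control and 10.02 and 9.96 in TRPM7 shRNA cells, and the median mesenchymal signal 7.67 and 7.63 against 7.25 and 7.25. Their part in the changes of the 34 genes was not tested.

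The control cells of the lines differed far more than TRPM7 shRNA changed either of them. Of the 34 genes, 20 were higher and 7 lower in SH-EP2 control than in SH-SY5Y control cells. Of all genes with a detected probe, 24.3% were higher and 27.3% lower. These comparisons use the same control arrays as the knockdown comparisons, and cell line, culture medium and any batch cannot be told apart. The methods give DMEM for SH-EP2 and DMEM/F12 for SH-SY5Y, whereas the labels give the same medium for both.

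SH-EP2 cells were higher in genes that move glucose in and acid out. SLC2A3 was at least 118-fold higher on the scale of the main processing, being undetected in SH-SY5Y, and SLC2A1 was 3.28-fold higher. SLC16A3 read 11.36 and 11.39 in SH-EP2 control against 5.15 and 4.58 in SH-SY5Y control cells, a difference of 6.51 ± 0.30 (limma adjusted p = 5.29e-13), and CA12 differed by 4.14 ± 0.30. The sizes varied over the alternative settings described below. The log2 difference ran from 3.55 to 8.62 for SLC2A3, from 4.28 to 6.82 for SLC16A3 and from 1.52 to 4.71 for CA12. CA9 was at least 1.08-fold higher, with an adjusted p of 0.0489 that was not under 0.05 without 7 of the 8 arrays in turn (0.0576 to 0.247). Also higher were ADM (6.36-fold), ANKRD37 (5.89-fold), EPAS1 (4.82-fold), PFKFB3 (3.06-fold), NDRG1 (2.71-fold), PFKFB4 (2.63-fold), ALDOA (2.60-fold), and PFKP and PFKL (2.12-fold each). LDHA, PGAM1, BNIP3L, GPI, HK1 and ENO1 were higher by 1.45- to 1.73-fold, although the dimmer BNIP3L probe was not called (-0.26, adjusted p = 0.360).

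Isoforms of the same step differed in opposite directions. Of the aldolases, ALDOA was higher in SH-EP2 and ALDOC was 3.48-fold higher in SH-SY5Y. Of the enolases, ENO1 was higher in SH-EP2 and ENO2 was 4.90-fold higher in SH-SY5Y, where it read 9.24 and 9.04 against 6.91 and 6.78. Of the hexokinases HK1 was higher in SH-EP2 and HK2 was 1.70-fold higher in SH-SY5Y (limma adjusted p = 0.00370). That HK2 difference of -0.77 became -0.49 without SH-EP2 control replicate 1 and lost its call. The other HK2 probe was 3.44-fold higher in SH-SY5Y (adjusted p = 5.39e-06). PFKM was 1.53-fold higher in SH-SY5Y, where PFKP and PFKL were lower. Each of these ratios compares the same probe between lines, so they do not say which isoform was the more abundant.

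EGLN3, VHL and DDIT4 were also higher in SH-SY5Y, EGLN3 by at least 4.44-fold because it was not detected in SH-EP2, VHL by 1.59-fold and DDIT4 by 1.36-fold. The EGLN3 bound holds on the scale of the main processing. Its fitted log2 difference ran from -3.29 to -0.48 over the alternative settings. The DDIT4 call was lost without SH-EP2 control replicate 1 (limma adjusted p = 0.0518), SH-EP2 control replicate 2 (0.0727) or SH-SY5Y control replicate 2 (0.0728). The genes with no call were ARNT, EGLN1, PGK1, TPI1, BNIP3, HIF1A and PDK1. For HIF1A the probes were called differently: the main probe differed by -0.18 (95% interval -0.49 to 0.13), and the others by 0.57 (adjusted p = 0.00158) and 0.61 (adjusted p = 0.00757), higher in SH-EP2. The main HIF1A probe was called lower in SH-EP2 without SH-SY5Y control replicate 2 (-0.43, adjusted p = 0.0451), so a direction for HIF1A between the lines is not settled by these probes.

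**Figure D4:**
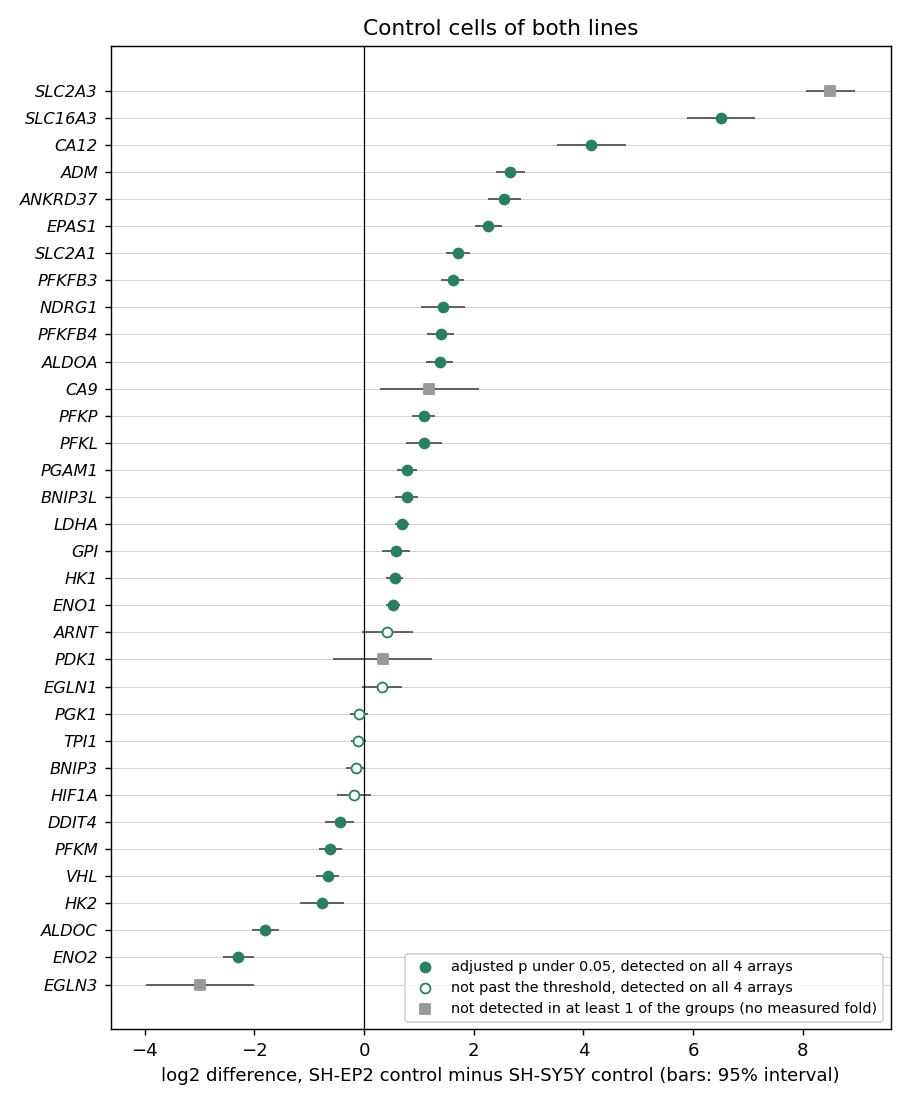
Log2 difference between SH-EP2 control and SH-SY5Y control cells (horizontal axis) for the 34 genes in order of size, with 95% intervals as bars; gray squares mark genes not detected in at least 1 of these groups, which have a bound and no measured fold. SLC16A3 at 6.51 and CA12 at 4.14 lead the measured genes, and ALDOC at -1.80 and ENO2 at -2.29 are the lowest measured ones.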

How the data were processed

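The authors deposited linear bead intensities of 47322 probes, not normalized, from GenomeStudio (version 2011.1 in the submitters' processing notes). The deposited detection p-values were used to call a probe detected under 0.05. The study's methods name Robust-Multi-Array normalization in Arraystar and name no test for the fold differences. Here signals were corrected with an RMA background model (98.3 to 111.1, SD 6.71 to 8.05), written for this work, quantile normalized over 8 arrays and log2 transformed without a filter, and fitted in R 4.3.3 with limma 3.58.1 and statmod 1.5.0 (4 groups, eBayes with an intensity trend, two-sided, Benjamini-Hochberg over all probes). Samples were grouped by the labelled cell line and shRNA.

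The 34 genes and the 6 other lists were chosen with earlier results of these data known. All 34 are named, each by its brightest probe. Other probes are named where called differently, beside a called gene, or, for ARNT, TPI1 and PGK1, because they went the other way. Not every probe that went the other way is named. Of the other lists at most 3 called genes are named per list and comparison, by size of change and detection in the whole brighter group. Where a probe was undetected in a whole group, the fold is a bound: the mean of the brighter group against, per array, the higher of the lowest detected signal and the probe's own. On simulated arrays the procedure recovered 23% of log2 rises of 0.5 in SH-EP2 and 16% of falls of 0.5 in SH-SY5Y. It recovered 75.5% and 73.5% at a size of 1, and 100% and 94% at a size of 2. Each simulation changed 200 of 47322 probes per line, drew already normalized values, and used one mean and spread for both lines. The real comparisons called 1429 probes in SH-EP2 and 999 in SH-SY5Y, so the adjustment was stricter in the simulation. The recovered shares therefore do not give the power in these data. The main fit did not pair samples by replicate number. The replicate differences of control and TRPM7 shRNA arrays correlated at -0.00447 in SH-EP2 and -0.111 in SH-SY5Y over 14577 probes. These correlations cannot show whether the samples were paired, in this or in crossed order. Median array signals were 104.7 to 119.9, and precision is limited by how few arrays there are. Promoters came from RefSeq (GRCh38.p14), and probe positions were not used here. As alternatives, the background was corrected by neqc (offset 16) or normexp (offset 50) or not at all, arrays were scaled to their median, probes were required to be detected on at least 2 arrays, the intensity trend or eBayes was dropped, the lines were fitted separately, replicate numbers entered as a block, probes of a gene were averaged, and arrays were left out singly. Values of some genes on the further pathway lists are not reported here.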

Additional observations from a re-analysis of the deposited data

Results flagged for a closer look

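For 2 of the 34 genes the test of the difference between the lines was passed. The log2 change of EPAS1 in SH-EP2 minus that in SH-SY5Y was -2.37 (limma adjusted p = 5.16e-08), with a fall on both SH-EP2 knockdown arrays and a rise on both SH-SY5Y knockdown arrays. For ANKRD37 the same difference was -1.87 (adjusted p = 1.88e-05), with lower signals on all knockdown arrays of both lines. Markers of the noradrenergic and mesenchymal cell types were called in the same comparisons, and their part in these differences was not tested.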

How the results depend on the processing

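All counts are of the 34 genes. In SH-EP2, 7 were called, 1 without the intensity trend, 0 in the per-probe test with equal variances, and 4 to 7 when each array was left out (4 without SH-EP2 control replicate 1). In SH-SY5Y, 4 were called, 2 with median scaling, 1 without the trend, and 0 in the per-probe test; the median change of -0.11 moved to 0.0436 with median scaling. The difference between the lines called 2, 6 with normexp or no background correction, 4 with probes detected on at least 2 arrays, 0 without the trend, and 2 to 4 when each array was left out (4 without SH-SY5Y control replicate 1 or TRPM7 shRNA replicate 2). Between control cells 27 were called, 4 in the per-probe test, and 24 to 27 when each array was left out. With the replicate block 7 were called in SH-EP2, 3 in SH-SY5Y, 2 for the difference and 26 between control cells, and every call lost in it was ANKRD37 in SH-SY5Y or CA9 between control cells. A block with crossed replicate numbers, chosen after seeing the data, called 8 in SH-EP2, 8 in SH-SY5Y, 7 for the difference and 26 between control cells. The per-probe test has few residual degrees of freedom by construction; for the other settings the cause was not tested. When an array is left out, its group keeps a single array, whose spread is taken from the other groups. No call reversed its direction under these settings. The EPAS1 rise in SH-SY5Y and the ANKRD37 fall in SH-EP2 lost their calls only in the per-probe test. The differences of both genes between the lines lost theirs without the trend (adjusted p = 0.0536 for EPAS1 and 0.0708 for ANKRD37) and kept them in the other settings in which a difference was fitted, which do not include the per-probe test or the separate fits of the lines. Genes near background, such as CA9, EGLN3 and PDK1, carry little information, and so does the SLC16A3 change in SH-SY5Y. With 2 arrays per group, a gene without a call may have changed. Changes of 0.5 were mostly missed on simulated arrays, but these held fewer changed probes than were called here, and so a stricter adjustment. Only probes detected on all arrays were changed in them, so the missed share does not carry over to these data.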
